A study of Mus musculus with 6 samples.

Results

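The genes that encode the hormones of the anterior pituitary were followed through the libraries of LβT2 cells. The genes were *Cga*, *Lhb*, *Fshb*, *Tshb*, *Pomc*, *Gh* and *Prl*, which are 7 of the 47069 genes in the count table and were chosen by name. LβT2 is a mouse gonadotrope cell line that was derived from a pituitary tumor of a mouse in which the regulatory region of the rat *Lhb* gene drove the SV40 T antigen. It is therefore a single transformed line, and both groups were of this line. The 3 fresh libraries came from cells that were lysed directly, and the 3 RNA-Best libraries from cells that were first kept for days in the preservative RNA-Best in the cold. All cells had received gonadotropin-releasing hormone (GnRH) at 2 nM for 40 min, so no untreated library was available and an effect of GnRH on these genes could not be tested. Separate cultures are not named in the labels, so p-values measure the spread between these libraries, which may be technical.

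Gonadotropes make luteinizing hormone (LH) and follicle-stimulating hormone (FSH). Each is a pair of the common α-subunit, encoded by *Cga*, with a β-subunit that gives the hormone its specificity, encoded by *Lhb* or *Fshb*. Thyroid-stimulating hormone, the product of thyrotropes, pairs the same α-subunit with the product of *Tshb*. *Pomc* encodes the precursor of adrenocorticotropic hormone in corticotropes and of melanocyte-stimulating hormone in melanotropes, *Gh* encodes growth hormone in somatotropes, and *Prl* encodes prolactin in lactotropes. Somatotropes, lactotropes and thyrotropes descend from cells that express the transcription factor Pit-1, the product of *Pou1f1*.

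The DNA before the start of each gene carries sites through which cell type and GnRH are known to act, and it is shown here as a description. Whether the levels depend on these sites was not tested. RefSeq windows of 250 bases before the start were at hand for 6 of the 7 genes on the build GRCm38.p6. Matches on either strand are printed in capitals for 6 kinds of motif. These were CAAGGNCA, bound by SF-1, the product of *Nr5a1*; CNCCCCCA for the Egr factors; TAATCC or TAATCT for the factor Pitx1; TGANGTCA for the cyclic AMP response element (CRE); ATGAATA for Pit-1; and the TATA box TATAAA. The letters for SF-1, Egr and Pitx were taken with sites known from *Lhb* in mind, so that finding them there is a description of the window. Sites of other factors were not sought, so a window with few matches may still hold regulatory sites.
Cga, chr4:34893529-34893778, plus strand: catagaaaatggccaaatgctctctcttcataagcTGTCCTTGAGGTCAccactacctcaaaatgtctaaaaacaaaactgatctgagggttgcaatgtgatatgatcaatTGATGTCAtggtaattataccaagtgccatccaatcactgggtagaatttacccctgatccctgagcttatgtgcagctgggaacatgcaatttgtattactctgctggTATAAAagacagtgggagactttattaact
Lhb, chr7:45420696-45420945, plus strand: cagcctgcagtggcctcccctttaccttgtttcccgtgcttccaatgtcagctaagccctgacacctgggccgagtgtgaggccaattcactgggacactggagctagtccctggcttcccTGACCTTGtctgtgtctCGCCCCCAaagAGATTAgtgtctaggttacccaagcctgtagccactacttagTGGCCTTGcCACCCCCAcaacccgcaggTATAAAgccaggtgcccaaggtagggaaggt
Fshb, chr2:107059652-107059901, minus strand: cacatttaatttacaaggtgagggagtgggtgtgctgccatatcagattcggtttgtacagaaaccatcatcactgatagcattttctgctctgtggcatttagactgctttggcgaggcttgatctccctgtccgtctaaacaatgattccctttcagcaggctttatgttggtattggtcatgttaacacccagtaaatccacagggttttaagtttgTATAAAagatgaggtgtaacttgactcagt
Tshb, chr3:102782715-102782964, minus strand: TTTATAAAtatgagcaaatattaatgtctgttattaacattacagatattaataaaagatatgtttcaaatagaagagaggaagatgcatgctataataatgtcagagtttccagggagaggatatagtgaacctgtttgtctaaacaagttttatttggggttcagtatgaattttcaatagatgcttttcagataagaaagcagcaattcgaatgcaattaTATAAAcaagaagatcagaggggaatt

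The *Lhb* window held an SF-1 motif and an Egr motif side by side, and then both again. The first pair began 129 and 112 bases before the start and the second pair 59 and 50 bases before it, with the Pitx motif between the pairs, 101 bases before the start. In the *Cga* window, an SF-1 motif began 215 bases before the start. It ran into a match of the CRE letters, TGAGGTCA, that began 209 bases before the start. Another match of the CRE letters, TGATGTCA, began 139 bases before it. The CRE letters leave their base N open, so these are matches of a loose pattern, and binding was not tested. Of the motifs sought, the *Fshb* and *Tshb* windows held the TATA box alone, which began 30 and 27 bases before the start. In *Tshb* a further pair of overlapping matches on both strands lay at the far end of the window. Of the windows not printed, that of *Pomc* held a TATA box as its only match and that of *Prl* held a TATA box and 2 Pit-1 motifs. Among 32851 RefSeq windows of the same length, the SF-1 motif stood in 5.53%, the Egr motif in 12.8%, either Pitx motif in 12.8%, the CRE motif in 7.49%, the Pit-1 motif in 2.9% and the TATA box in 12.4%. GENCODE M21 places the start of *Lhb* 126 bases before that of RefSeq, so it counts the second part of the *Lhb* window as exon.

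**Figure D1:**
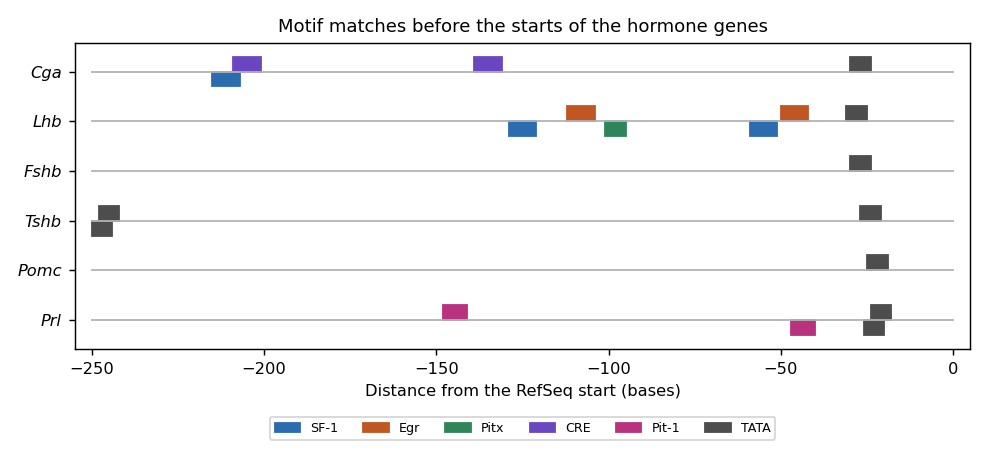
Motif matches in the 250 bases before the RefSeq start of 6 hormone genes, by distance from the start in bases; boxes above a line are matches on the strand of the gene and boxes below it on the other strand. Each of the 6 windows has a TATA box within 31 bases of the start, and SF-1 matches appear in *Lhb* and *Cga*.

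Of the 7 hormone genes, *Cga* was among the most abundant messages of these cells, *Lhb* was expressed at a moderate level, *Tshb* was near the limit of the test, and the other 4 were at or close to 0 counts. Levels are in CPM, counts per 1000000 counts of the library. The libraries held between 4909418 and 47438746 counts, and the fresh libraries were the 3 deepest. A count of 0 allows up to 3 counts, a limit that ran from 0.0632 CPM to 0.611 CPM with falling depth and covers counting error only.

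**Figure D2:**
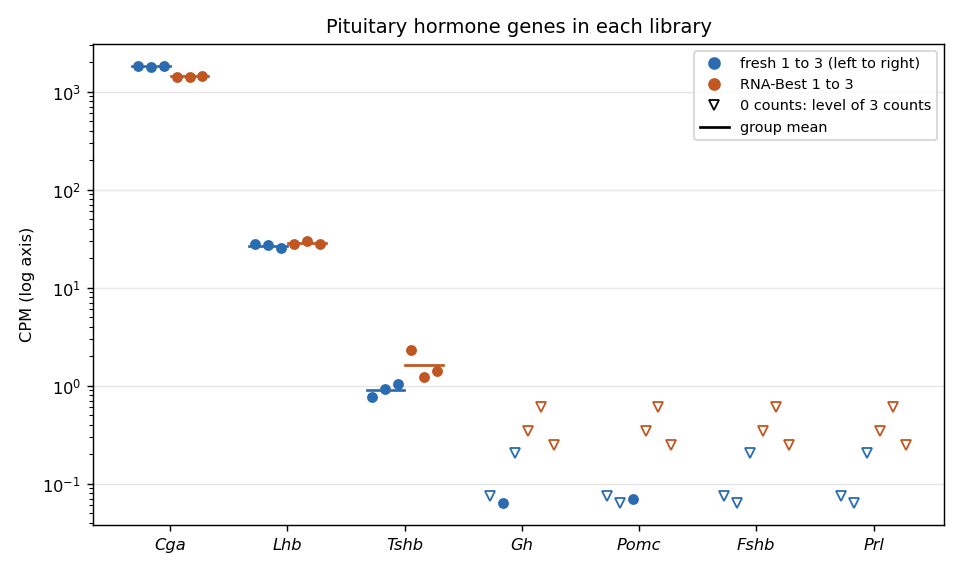
Level of each hormone gene in each library, in CPM on a log axis, with fresh libraries in blue, RNA-Best libraries in orange, group means as bars and the level of 3 counts as an open triangle where a library had 0. *Cga* was at 1792 CPM or more in fresh and at 1448 CPM or less in RNA-Best libraries, the groups overlapped for *Lhb*, and *Tshb* lay around 1 CPM.

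*Cga* lies on chromosome 4 from 34893779 to 34907370 of GRCm38, on the plus strand. Its level was 1815, 1792 and 1831 CPM in the fresh libraries and 1419, 1410 and 1448 CPM in the RNA-Best libraries. Every RNA-Best library was below every fresh library, and the spread within a group was far smaller than the gap between the groups. The mean was 1813 ± 19.5 CPM in fresh cells against 1426 ± 20.2 CPM after RNA-Best (SD, n = 3 each). The quasi-likelihood fit of edgeR gave a log2 fold change of RNA-Best over fresh of -0.36 (SE 0.026, adjusted p = 7.56e-14), which is a level 1.28-fold lower in RNA-Best. Differences past the threshold were common in these libraries, since 50.8% of the 14736 genes tested had an adjusted p under 0.05, 26% higher and 24.8% lower in RNA-Best, and the CPM of the groups did not overlap in 57.5%. Of the tested genes, 6.56% had a lower log2 fold change than *Cga*. In bulk RNA, fewer cells that express a gene and less of its RNA per cell cannot be told apart.

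Short genes as a class were lower in RNA-Best. The 1566 tested genes with up to 1000 exonic bases had a median log2 fold change of -0.22, where the median of all tested genes was -0.0074, and *Cga* has 954 exonic bases. With an offset for gene length fitted in each library, the log2 fold change of *Cga* was -0.22 (edgeR, adjusted p = 2.54e-08), and with an offset for GC content it was -0.45. It kept its direction and its side of the threshold under all 18 alternatives. The end of *Cga* is shared with an antisense gene, *Platr9*, a long noncoding RNA whose exons cover 305 of the exonic bases of *Cga*. *Platr9* had 39.4 ± 4.52 CPM in fresh cells against 50.1 ± 3.49 CPM after RNA-Best (SD, n = 3 each), and it rose by 0.35 on the log2 scale (edgeR, adjusted p = 2.04e-05), opposite to *Cga*. The sources used here do not say whether strand was used in counting, so reads of *Platr9* and of this stretch of *Cga* cannot be told apart, and the value of *Platr9* is uncertain beside a gene of the abundance of *Cga*.

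*Lhb* lies on chromosome 7 from 45420820 to 45421897, on the plus strand. Its level was 28.1, 27.3 and 25.1 CPM in the fresh libraries and 27.7, 29.7 and 27.6 CPM in the RNA-Best libraries. The groups overlapped, and the lowest library was fresh replicate 3. The mean was 26.9 ± 1.54 CPM in fresh cells against 28.3 ± 1.21 CPM after RNA-Best (SD, n = 3 each). The log2 fold change was 0.03 (SE 0.063, edgeR adjusted p = 0.775), so a difference was not detected. *Lhb* has 678 exonic bases, and with the length offset its log2 fold change was 0.19 (edgeR, adjusted p = 0.0172). With the GC offset it was 0.15 (edgeR, adjusted p = 0.0557). The call for *Lhb* thus depended on the length offset, and the call for *Cga* on neither offset. The last 138 bases of *Lhb* are shared with *Ruvbl2* on the other strand, a gene for an ATPase of chromatin remodelling complexes. *Ruvbl2* had 131 ± 4.06 CPM in fresh cells against 116 ± 5.19 CPM after RNA-Best (SD, n = 3 each), and fell by 0.20 on the log2 scale (edgeR, adjusted p = 2.19e-05). Its part in the counts of *Lhb* was not tested.

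**Figure D3:**
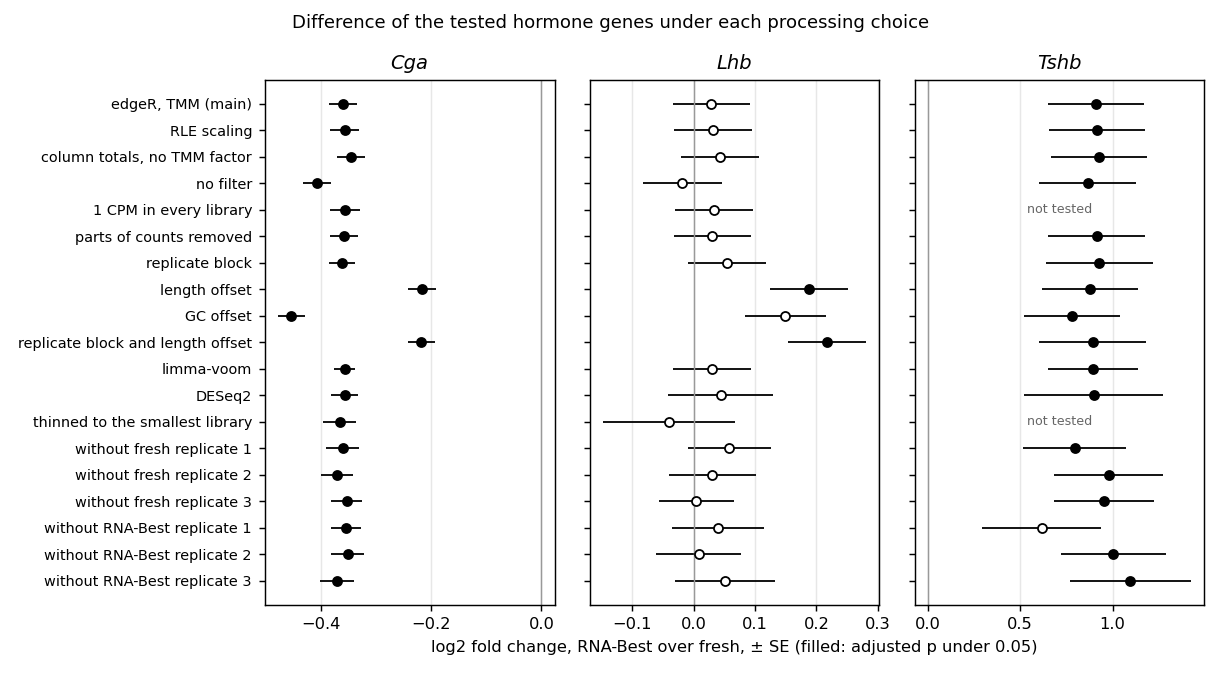
Log2 fold change of RNA-Best over fresh with its standard error for *Cga*, *Lhb* and *Tshb* under the main fit and each alternative; filled points have an adjusted p under 0.05, and each panel has its own axis. *Cga* stayed below 0 in every row, *Lhb* crossed 0, and *Tshb* lost its call without RNA-Best replicate 1.

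The α-subunit message outnumbered the LH β-subunit message many times over. Compared as CPM per kilobase of exon, since longer genes give more reads, *Cga* stood at 1900 ± 20.4 in fresh cells against 1494 ± 21.2 after RNA-Best, and *Lhb* at 39.6 ± 2.28 against 41.8 ± 1.79 (SD, n = 3 each). *Cga* was 45.9, 46.6 and 51.8 times *Lhb* in the fresh libraries. In the RNA-Best libraries it was 36.4, 33.7 and 37.3 times *Lhb*. Each RNA-Best library had a smaller excess of *Cga* than each fresh library. The mean was 48.1 ± 3.21-fold in fresh cells against 35.8 ± 1.89-fold after RNA-Best (SD, n = 3 each). The ratio of *Lhb* to *Cga* was thus 1.34-fold higher in RNA-Best (two-sided exact permutation over libraries, p = 0.1, which is the lowest that 3 against 3 can give). With coding length in place of exonic length, the mean excess over the 6 libraries was 69.3-fold instead of 41.9-fold. The 954 exonic bases of *Cga* join transcripts of which the longest has 707, and the 678 of *Lhb* begin 126 bases before the RefSeq start. The excess, the levels per kilobase and the ranks by them therefore depend on the length taken.

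By CPM per exonic kilobase, *Cga* ranked between 15 and 16 of 46488 genes with a known length in the fresh libraries and 19 in each RNA-Best library. *Lhb* ranked between 1580 and 1800 in fresh and between 1368 and 1508 in RNA-Best libraries. *Tshb* ranked between 14820 and 17064 over the 6 libraries. The order *Cga*, *Lhb*, *Tshb* was the same in every library, and these 3 levels were separated by far more than their spread, while *Gh*, *Pomc*, *Fshb* and *Prl* could not be ordered at this depth.

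**Figure D4:**
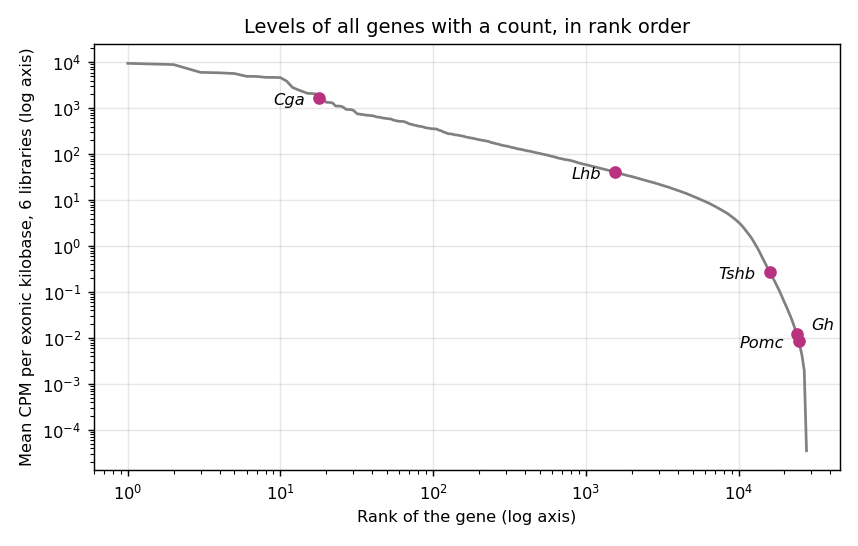
Mean CPM per exonic kilobase over the 6 libraries for all genes with a count, in order of rank, on log axes, with the 5 hormone genes that had a count marked. *Cga* sits near the top of the curve, *Lhb* at 40.7, *Tshb* at 0.28, and *Gh* and *Pomc* at the foot.

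*Tshb*, on chromosome 3 from 102775465 to 102782718 on the minus strand, was the third hormone gene that could be tested. It had 31, 44 and 15 counts in the fresh libraries and 20, 6 and 17 counts in the RNA-Best libraries. These corresponded to 0.765, 0.927 and 1.04 CPM in fresh and to 2.28, 1.22 and 1.42 CPM in RNA-Best libraries. All 6 libraries were above the filter's limit of 0.755 CPM, the lowest of them only just. Every RNA-Best library was above every fresh library, and RNA-Best replicate 1 stood highest. The mean was 0.91 ± 0.137 CPM in fresh cells against 1.64 ± 0.563 CPM after RNA-Best (SD, n = 3 each). The log2 fold change was 0.91 (SE 0.26, edgeR adjusted p = 0.0035), and 98.2% of tested genes had a lower one. Without RNA-Best replicate 1 it was 0.62 (edgeR, adjusted p = 0.147), so the call rested on that library. It was not tested under the filter of 1 CPM in every library or after all libraries were thinned to the depth of the smallest.

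The annotation of *Tshb* bears on its level. Of its 4555 exonic bases, 4396 belong to a transcript with a retained intron, and its coding transcripts alone cover 649. Per exonic kilobase *Tshb* had 0.2 ± 0.03 CPM in fresh cells against 0.36 ± 0.124 CPM after RNA-Best (SD, n = 3 each), and per kilobase of the coding transcripts 1.4 ± 0.21 and 2.53 ± 0.867 CPM (SD, n = 3 each). Where in the gene the reads lay was not analysed here. The whole gene lies inside *Tspan2*, a tetraspanin gene on the other strand, with which it shares 0 exonic bases. *Tspan2* had 42.9 ± 3.32 CPM in fresh cells against 49.3 ± 1.76 CPM after RNA-Best (SD, n = 3 each), and rose by 0.16 on the log2 scale (edgeR, adjusted p = 0.0148). Its part in the counts of *Tshb* was not tested.

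The FSH β-subunit was not detected. *Fshb*, on chromosome 2 from 107056140 to 107059656, had 0 counts in all 6 libraries. Over the 3 fresh libraries together, 0 counts allow up to 0.0293 CPM, and over the 3 RNA-Best libraries up to 0.117 CPM. Per exonic kilobase and against the limit of 3 counts, *Lhb* was at least 2203-fold higher than *Fshb* in fresh and at least 566-fold higher in RNA-Best libraries. *Fshb* was thus the gonadotropin subunit that was not detectable at this depth, in either group.

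*Prl*, *Gh* and *Pomc* were at or close to 0 as well. *Prl*, on chromosome 13 from 27057570 to 27065205, had 0 counts in every library, with the same limits in CPM as *Fshb*. *Gh*, on chromosome 11 from 106300271 to 106301865, had 3 counts in fresh replicate 2, the deepest library, and 0 in the other 5. Over the fresh libraries this was 0.0293 CPM (exact Poisson interval at 95%, 0.00604 to 0.0856 CPM). Over the RNA-Best libraries it was 0, which allows up to 0.117 CPM by the limit of 3 counts and up to 0.144 CPM by that interval. *Pomc*, on chromosome 12 from 3954951 to 3960642, had 1 count in fresh replicate 3 and 0 in the others. Over the fresh libraries this was 0.00976 CPM (0.000247 to 0.0544 CPM), and the limit in RNA-Best was again 0.117 CPM. For *Gh* and *Pomc* no library exceeded 3 counts, so neither passed the filter, and a difference below the limits given could not have been seen at this depth.

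The label of the cells was checked against the markers of gonadotropes and of other pituitary cells. Of 6 gonadotrope markers, *Cga*, *Lhb*, *Gnrhr*, *Nr5a1* and *Foxl2* were expressed and *Fshb* was at 0. Their summed level ran from 2403 to 2428 CPM in fresh and from 2004 to 2043 CPM in RNA-Best libraries, of which *Cga* made up most. Of 9 genes of other pituitary cell types, *Sox2* of stem cells, *Dcn* of fibroblasts and *Ptprc* of leukocytes were at 0 in every library. The summed level of the 9 ran from 45.9 to 47.2 CPM in fresh and from 42.2 to 42.8 CPM in RNA-Best libraries, nearly all of it *Pecam1*, an adhesion molecule of endothelial cells. *Pecam1* had 42.4 ± 0.633 CPM in fresh cells against 38.9 ± 1.63 CPM after RNA-Best (SD, n = 3 each) and fell by 0.15 on the log2 scale (edgeR, adjusted p = 0.015). It was the 1 gene called of the 3 tested in this list, where 50.8% of all tested genes were called, and it lost its call in 4 of 18 alternatives. *Sox9* and *Kdr*, the next by level, stayed under 3 CPM in both groups.

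Genes that control the gonadotropin subunits differed in both directions. All 11 regulators passed the filter; 5 were higher and 4 lower in RNA-Best, and 2 did not pass the test, against 50.8% called among all genes tested. With the length offset, which called 40.6% of all genes tested (15.9% higher and 24.8% lower), 3 were higher and 4 lower, and *Egr1* and *Smad3* were no longer called. In the main fit, the median log2 fold change of the 11 regulators was 0.01, close to that of all tested genes. The largest change was in *Gnrhr*, the receptor for GnRH, with 119 ± 8.73 CPM in fresh cells against 163.8 ± 7.72 CPM after RNA-Best (SD, n = 3 each), and rose by 0.43 on the log2 scale (edgeR, adjusted p = 5.66e-11). *Foxl2*, a forkhead factor that acts on *Fshb* and *Gnrhr*, rose by 0.33 on the log2 scale and *Isl1*, a LIM homeodomain factor, by 0.21. In the opposite direction, *Pitx1*, the factor of that motif in the *Lhb* window, went from 672.6 ± 16.1 to 582.1 ± 19.9 CPM (SD, n = 3 each), a log2 fold change of -0.22 (edgeR, adjusted p = 5.35e-08). *Nr5a1*, which encodes SF-1, went from 436.4 ± 2.35 to 379.3 ± 7.56 CPM (SD, n = 3 each), a log2 fold change of -0.21 (edgeR, adjusted p = 5.33e-08). *Nr0b1*, which encodes a corepressor of SF-1, fell by 0.26 on the log2 scale.

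*Egr1*, the early factor through which GnRH is known to act on *Lhb*, had 571.4 ± 2.29 CPM in fresh cells against 603.2 ± 14.1 CPM after RNA-Best (SD, n = 3 each). Its log2 fold change of 0.06 passed the threshold narrowly (edgeR, adjusted p = 0.0475), and 10 of 18 alternatives did not call it. *Gata2*, a zinc finger factor of gonadotropes and thyrotropes, went from 529.7 ± 3.44 to 509.9 ± 6.26 CPM (SD, n = 3 each; log2 fold change -0.07, edgeR adjusted p = 0.0344), but 9 of 18 alternatives did not call it and with the GC offset its log2 fold change turned to 0.02. *Smad3*, which carries activin signals, had a log2 fold change of 0.09 and lost its call in 6 of 18. The calls of *Gnrhr*, *Foxl2*, *Isl1*, *Pitx1*, *Nr5a1* and *Nr0b1* were kept under all 18. *Lhx3*, a LIM homeodomain factor of the early pituitary, had a log2 fold change of -0.09 and did not pass the test.

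**Figure D5:**
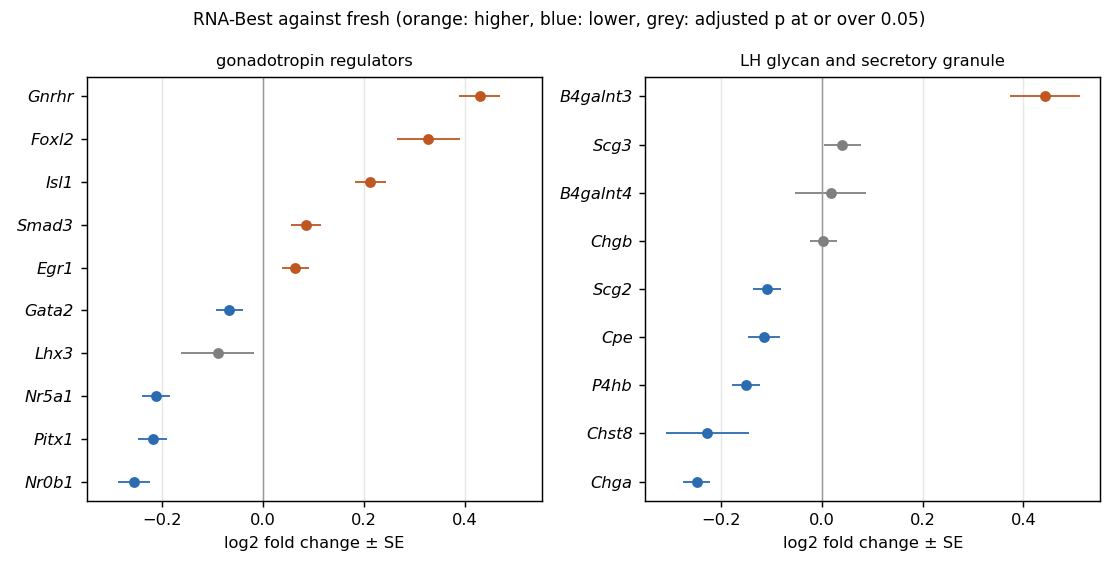
Log2 fold change of RNA-Best over fresh with its standard error for 10 of the 11 regulators of the gonadotropin genes and the 9 genes of the LH glycan and the secretory granule; orange points passed the test as higher, blue points as lower, and grey points did not pass. Regulators lay on both sides of 0, from -0.26 for *Nr0b1* to 0.43 for *Gnrhr*.

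LH carries sulfated glycans and is stored in secretory granules, and genes of these steps changed in both directions. Of 9 such genes all were tested; 1 was higher, 5 were lower (24.8% of all tested genes were) and 3 did not pass the test, with a median log2 fold change of -0.11. *Scg2*, a granin that gives rise to secretoneurin, was the most abundant and went from 6600 ± 113 to 6181 ± 147 CPM (SD, n = 3 each; log2 fold change -0.11, edgeR adjusted p = 0.000996). *Chga*, the granin chromogranin A, went from 2059 ± 36.3 to 1748 ± 46.5 CPM (SD, n = 3 each; log2 fold change -0.25, edgeR adjusted p = 1.03e-09). *Chgb*, chromogranin B, had 3663 ± 55.3 and 3705 ± 85.3 CPM (SD, n = 3 each) and did not pass the test. *B4galnt3*, which adds the N-acetylgalactosamine that is then sulfated, was the gene that rose, by 0.44 on the log2 scale (edgeR, adjusted p = 1.8e-06), from 20.4 ± 1.9 to 29.0 ± 1.62 CPM (SD, n = 3 each). *Chst8*, the sulfotransferase of the same glycan, fell by 0.23, *P4hb*, a disulfide isomerase, by 0.15, and *Cpe*, a carboxypeptidase of prohormone maturation, by 0.11. *Chst8* lost its call in 5 of 18 alternatives. With the length offset, *Scg2* and *Cpe* did not pass, and *Chgb* and *Scg3* passed as higher in RNA-Best, at log2 fold changes of 0.07 and 0.10, so that 3 genes were higher and 3 lower, against 15.9% and 24.8% of all genes tested in that fit.

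Few of the genes that accompany the other hormones could be tested. The level of a gene in these lists was not taken as a sign of that cell type, since other cells may express it too. Of 8 genes of corticotropes and melanotropes, 4 were tested and 1 changed, against 50.8% of all genes tested. This was *Nr4a1*, an early-response receptor that acts on *Pomc* in corticotropes, with 1596 ± 10.5 CPM in fresh cells against 1435 ± 74.5 CPM after RNA-Best (SD, n = 3 each; log2 fold change -0.17, edgeR adjusted p = 9.01e-06). *Nr4a1* made up nearly all of the summed level of this list, which ran from 1603 to 1622 CPM in fresh libraries. All cells had received GnRH, so an effect of GnRH on *Nr4a1* could not be tested. *Tbx19*, the corticotrope factor that switches on *Pomc*, had 3 counts in all libraries together, while *Crhr1*, the receptor for corticotropin-releasing hormone, had 14.6 ± 1.33 and 12.7 ± 1.48 CPM (SD, n = 3 each) and did not pass the test. *Neurod1*, a basic helix-loop-helix factor of early corticotropes, had 2.83 ± 0.139 and 2.31 ± 0.179 CPM (SD, n = 3 each) and did not pass either. Of 9 genes of the Pit-1 lineage, *Pou1f1* and *Trhr* were at 0 in every library, 3 were tested and 0 passed in edgeR, limma-voom or DESeq2, nor in edgeR at an unadjusted p under 0.05, where 50.8% of all tested genes passed in edgeR. *Drd2*, the dopamine receptor that restrains lactotropes, was the most abundant of them with 7.93 ± 0.711 and 8.68 ± 0.155 CPM (SD, n = 3 each), followed by *Esr1* and *Neurod4* at about 2 CPM. With the length offset *Esr1* was called.

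Among the relatives of the glycoprotein hormones and the receptors for pituitary hormones, 11 genes in all, 8 had a count and 1 passed the filter. *Gpha2*, which encodes a second α-subunit, had 0.367 ± 0.108 CPM in fresh cells against 0.24 ± 0.162 CPM after RNA-Best (SD, n = 3 each), from 39 and 5 counts at unequal depth, and was not tested. The LH receptor gene *Lhcgr* and the FSH receptor gene *Fshr* were at 0 throughout. *Prlr*, the prolactin receptor, had 1.63 ± 0.126 and 2.35 ± 0.891 CPM (SD, n = 3 each) and did not pass the test (edgeR, adjusted p = 0.132). *Mc3r*, a melanocortin receptor, had 0.343 ± 0.183 and 0.419 ± 0.259 CPM (SD, n = 3 each) and was not tested. The 25 paralogs of *Prl* that are known from the placenta, *Prl2a1*, *Prl2b1* and *Prl2c1* among them, had 0 counts in every library.

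The genes whose levels over the 6 libraries were most like those of *Cga* and *Lhb* were looked up among 10190 other tested genes with a mean of at least 10 CPM. The measure was Pearson's r of log2(CPM + 1) over 6 libraries that fall into 2 groups and differ in depth, so it is given as a description. For *Cga* the nearest included *Fnta*, a subunit of protein farnesyltransferase (r = 0.9996), and *Rps7*, a ribosomal protein (r = 0.9994), and 220 genes had an r over 0.99. For *Lhb* they were *Cand2* (r = 0.9782), *Nxpe3* (r = 0.9676) and *Gtdc1* (r = 0.9654), and 0 genes had an r over 0.99. A gene with a gap between the groups has a high r with *Cga* by that gap alone, and *Lhb* had no such gap and far fewer counts, so these numbers of genes cannot be set against each other.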

How the data were processed

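Bulk mRNA libraries of LβT2 cells were used, 3 fresh and 3 RNA-Best. The authors aligned the reads to GRCm38 with STAR 2.5.1b and counted them per gene with featureCounts 1.5.0-p1 against GENCODE M8. The deposited table holds estimated counts for each gene, not scaled for library size, of which between 9.36% and 16.3% in a library are not whole, so some reads were counted in part. The setting for this and the use of strand are not given in the sources used here.

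Counts were rounded and tested in R 4.3.3 with the quasi-likelihood test of edgeR 4.0.16 (TMM scaling, filterByExpr with a minimum count of 10, Benjamini-Hochberg adjustment over all genes tested, threshold 0.05). Limma 3.58.1 (voom, the study's method) and DESeq2 1.42.0 gave alternatives, with others for scaling, filter, parts of counts, replicate block, offsets for length and GC content (loess, span 0.5), thinning and single libraries left out. The edgeR script was tested on simulated data. Exonic lengths and positions came from GENCODE M21 (GRCm38), in which 46488 of 47069 genes were found, and promoter windows from RefSeq. Likeness of patterns used log2(CPM + 1). Intervals cover counting error only.

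Library pairs of a group had a chi-square of 1.1 to 2.21 per gene, so none was a plain copy of another. The lowest values, in the RNA-Best group, were near those of counting error alone. Repeats of the same RNA can therefore not be told from separate cultures by this measure. Deviations of libraries with the same number correlated between -0.00844 and 0.0121, so the numbers were not taken as pairs. The members and gene lists were chosen with earlier results of these data known. Named are the members, from each list the 3 genes with the highest mean CPM and the called gene with the largest change, 3 genes most like *Cga* and *Lhb*, and genes whose exons overlap a member's. *Tspan2*, the undetected genes and the other list genes named were chosen after their values were seen. Some genes that this rule names are not reported here.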

Additional observations from a re-analysis of the deposited data

How the results depend on the processing

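*Cga* kept its direction and its call under all 18 alternatives, with a log2 fold change from -0.45 to -0.22 (-0.37 to -0.35 with single libraries left out). *Lhb* had 0.19 (edgeR, adjusted p = 0.0172) with the length offset and 0.22 with the replicate block and the length offset (adjusted p = 0.007 from edgeR), both past the threshold, and a negative value with no filter (-0.019) and after thinning (-0.040). The replicate block alone gave -0.36 for *Cga*, 0.05 for *Lhb* and 0.93 for *Tshb*, and changed no call of a member or of a tested list gene. *Tshb* ran from 0.62 to 1.10 with single libraries left out and lost its call without RNA-Best replicate 1, a library that had 20 of the 43 RNA-Best counts. The cause of these changes was not tested. All genes called numbered 7472 with the replicate block, and between 5285 (thinned, fewer genes tested) and 7637 (no filter) over the alternatives. The ratio of *Lhb* to *Cga* was 0.37 to 0.46 higher on the log2 scale in RNA-Best with single libraries left out and 0.42 with the replicate numbers as pairs (exact sign-flip permutation, two-sided, p = 0.25, the smallest possible). The RefSeq protein lengths were not used here, so the coding length came from GENCODE, added after seeing the data, and gave a 69.3-fold excess of *Cga*. Not divided by exonic length, the mean rank was 32.3 for *Cga* and 7359 for *Lhb*. With single libraries left out, the level over all libraries ran from 0 to 0.0124 CPM for *Pomc* and from 0 to 0.0342 CPM for *Gh*, since each had its counts in 1 library. In the no-filter fit *Gh* and *Pomc* had adjusted p of 0.577 and 0.724 from edgeR. For lists added after seeing the data, the Pit-1 lineage had 1 call with no filter, with the length offset and with the replicate block and length offset, the hormone receptors 0 to 1 with single libraries left out, and the other cell types 0 with DESeq2 and after thinning and 0 to 1 with single libraries left out. Depth limits *Tshb* and the undetected genes, most of all in RNA-Best.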
